A study of Mus musculus with 24 samples.

Results

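Neutrophil granule and granulopoiesis genes were followed as a list of 34 genes that runs from the primary to the specific to the gelatinase granule stage. A listed gene was a member where the array held a probe set that carries its symbol and no other. Of the 34 genes, 32 met that rule, each with 1 probe set, among 19938 genes measured in all, and the formyl peptide receptor genes Fpr1 and Fpr2 were not analysed here. Levels below are log2 values as deposited, and they compare arrays for 1 gene, not genes with each other.

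RNA of 24 mouse marrow samples was read on 1 array each, in 6 groups. In the leukaemia set were tumour-bearing marrows of 7 Sca1-BCR/ABLp190+Pax5+/- mice, called Pax5+/- leukaemias here, tumour-bearing marrows of 2 Sca1-BCR/ABLp190 mice with both copies of Pax5, called both-copy leukaemias, and B cells of 5 wild-type marrows, labelled B220+. In the precursor set were pre-leukaemic proB and preB cells of marrow, from 3 Sca1-BCR/ABLp190+Pax5+/- mice (Pax5+/- precursors), 3 Sca1-BCR/ABLp190 mice (both-copy precursors) and 4 wild-type mice. All 4 oncogene-bearing groups carry the p190 form of the BCR/ABL fusion under the Sca1 promoter, which is active in blood stem and progenitor cells, and only the Pax5+/- groups lack 1 copy of Pax5, the factor that sets B cell identity. For the wild-type precursors the design text speaks of 3 mice and the labels of 4, and every labelled sample was used. All mice were kept in a conventional facility with exposure to common pathogens. The labels name no sort for the leukaemic marrows, while the other groups are named as B cells, so the leukaemia arrays may hold RNA of other cell types. The sources used here give neither age nor strain. The study asked how Pax5 dosage bears on the onset of precursor B cell leukaemia in mice that carry the oncogene.

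Neutrophils fill their granules in sequence. Primary granule proteins are transcribed at the promyelocyte stage and their genes then close, specific granule genes follow in myelocytes, and gelatinase granule genes and late cytosolic proteins come last and stay on in mature cells. C/EBP factors, PU.1 and GFI1 direct this sequence, and G-CSF drives it through its receptor Csf3r. Mature neutrophils are abundant in bone marrow, and B cells make little or none of the granule proteins.

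Promoter sequences were read from the RefSeq table of assembly GRCm38.p6, which held the window around the start for 29 of the 32 members. The promoters of 4 primary and 2 specific granule genes are shown from 250 bases before the start up to the start, on the strand of the gene, because the primary granule genes set the leukaemia groups apart, with Ltf and Ngp as examples of specific granule promoters that hold TTNNGNAA. They were picked after values were seen. Capitals mark each match to GAGGAA, the core of the PU.1 site, or to TTNNGNAA, a loose form of the C/EBP site, on either strand.
Mpo: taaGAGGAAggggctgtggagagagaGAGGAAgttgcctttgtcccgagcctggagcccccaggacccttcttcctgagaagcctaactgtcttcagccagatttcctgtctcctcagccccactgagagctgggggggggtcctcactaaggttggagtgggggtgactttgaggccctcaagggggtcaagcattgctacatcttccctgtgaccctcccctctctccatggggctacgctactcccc
Elane: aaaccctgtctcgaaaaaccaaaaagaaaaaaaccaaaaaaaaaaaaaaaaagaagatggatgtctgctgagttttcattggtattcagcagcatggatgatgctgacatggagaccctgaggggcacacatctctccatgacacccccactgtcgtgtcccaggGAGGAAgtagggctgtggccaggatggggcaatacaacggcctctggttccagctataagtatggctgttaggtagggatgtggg
Prtn3: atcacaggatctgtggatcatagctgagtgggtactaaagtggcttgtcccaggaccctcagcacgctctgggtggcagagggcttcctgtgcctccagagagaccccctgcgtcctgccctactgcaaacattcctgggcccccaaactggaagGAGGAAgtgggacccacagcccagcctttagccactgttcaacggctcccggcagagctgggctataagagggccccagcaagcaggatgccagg
Ctsg: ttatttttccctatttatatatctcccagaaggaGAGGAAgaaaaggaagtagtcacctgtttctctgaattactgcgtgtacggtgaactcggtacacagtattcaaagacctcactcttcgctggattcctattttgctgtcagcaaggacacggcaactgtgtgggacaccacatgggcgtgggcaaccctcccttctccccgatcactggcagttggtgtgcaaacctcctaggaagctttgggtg
Ltf: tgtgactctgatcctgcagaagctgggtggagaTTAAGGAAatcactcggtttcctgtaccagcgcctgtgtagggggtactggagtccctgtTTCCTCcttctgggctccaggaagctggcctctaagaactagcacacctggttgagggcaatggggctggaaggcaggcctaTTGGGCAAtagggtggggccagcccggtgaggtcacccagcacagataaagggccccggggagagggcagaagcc
Ngp: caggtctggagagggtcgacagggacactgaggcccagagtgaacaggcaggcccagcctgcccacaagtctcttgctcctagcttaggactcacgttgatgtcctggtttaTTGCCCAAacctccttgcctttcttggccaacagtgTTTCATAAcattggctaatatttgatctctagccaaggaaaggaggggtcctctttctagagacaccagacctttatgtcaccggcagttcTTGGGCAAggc
The windows lie at chr11:87793534-87793783 on the plus strand for Mpo, chr10:79886062-79886311 plus for Elane, chr10:79879417-79879666 plus for Prtn3, chr14:56102575-56102824 minus for Ctsg, chr9:111019042-111019291 plus for Ltf and chr9:110419558-110419807 plus for Ngp. Prtn3 and Elane are neighbours with 0 protein-coding genes between them, as are S100a8 and S100a9. GAGGAA was found in 4 of 5 primary granule promoters, and TTNNGNAA in 1 of 5. The 4 with GAGGAA are those shown, and the 1 with TTNNGNAA is that of Ms4a3, which is not shown. Among the 8 specific granule promoters GAGGAA was found in 4 and TTNNGNAA in 6. GAGGAA stood in 17 of the 29 member promoters (58.6%), against 23.1% of 27025 promoters of the same length. Its longer form GAGGAAGT, which contains it, stood in 6 (20.7%) against 2.44%. TTNNGNAA stood in 18 (62.1%) against 36.9%, TTGCNNAA, which overlaps it, in 10 (34.5%) against 9.55%, and TTGCGNAA, which meets both, in 0 against 0.67%. AACNG, the MYB core, stood in 28 (96.6%) against 74.1%, and TGTGGT, the RUNX core, in 3 (10.3%) against 14.2%. All 7 motifs were searched on both strands, and a match is a description of letters, not of a bound site.

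The both-copy leukaemias had the highest level of the 6 groups for 30 of the 32 members. Averaged over the members, the 7 Pax5+/- leukaemias had log2 levels of 6.79, 7.96 and 8.85 as lowest, median and highest and the both-copy leukaemias 10.90 and 10.22, against 9.07, 6.88, 6.93, 7.94 and 7.69 in the B220+ cells. Pax5+/- precursors had 6.95, 7.19 and 7.03, both-copy precursors 9.80, 7.26 and 7.07, and wild-type precursors 8.52, 8.44, 7.00 and 6.97. The B220+ cells, both-copy precursors and wild-type precursors were uneven within themselves: B220+ array 1, both-copy precursor array 1 and wild-type precursor arrays 1 and 2 were high, B220+ arrays 4 and 5 lay between, and the others were low, as were all 3 Pax5+/- precursor arrays. The Pax5+/- precursors had the lowest group mean for 26 of the 32 members. The exceptions at the top were the detoxifying enzyme gene Mgst1 and the cytokine gene Il1b, whose highest group mean was in the both-copy precursors.

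**Figure D1:**
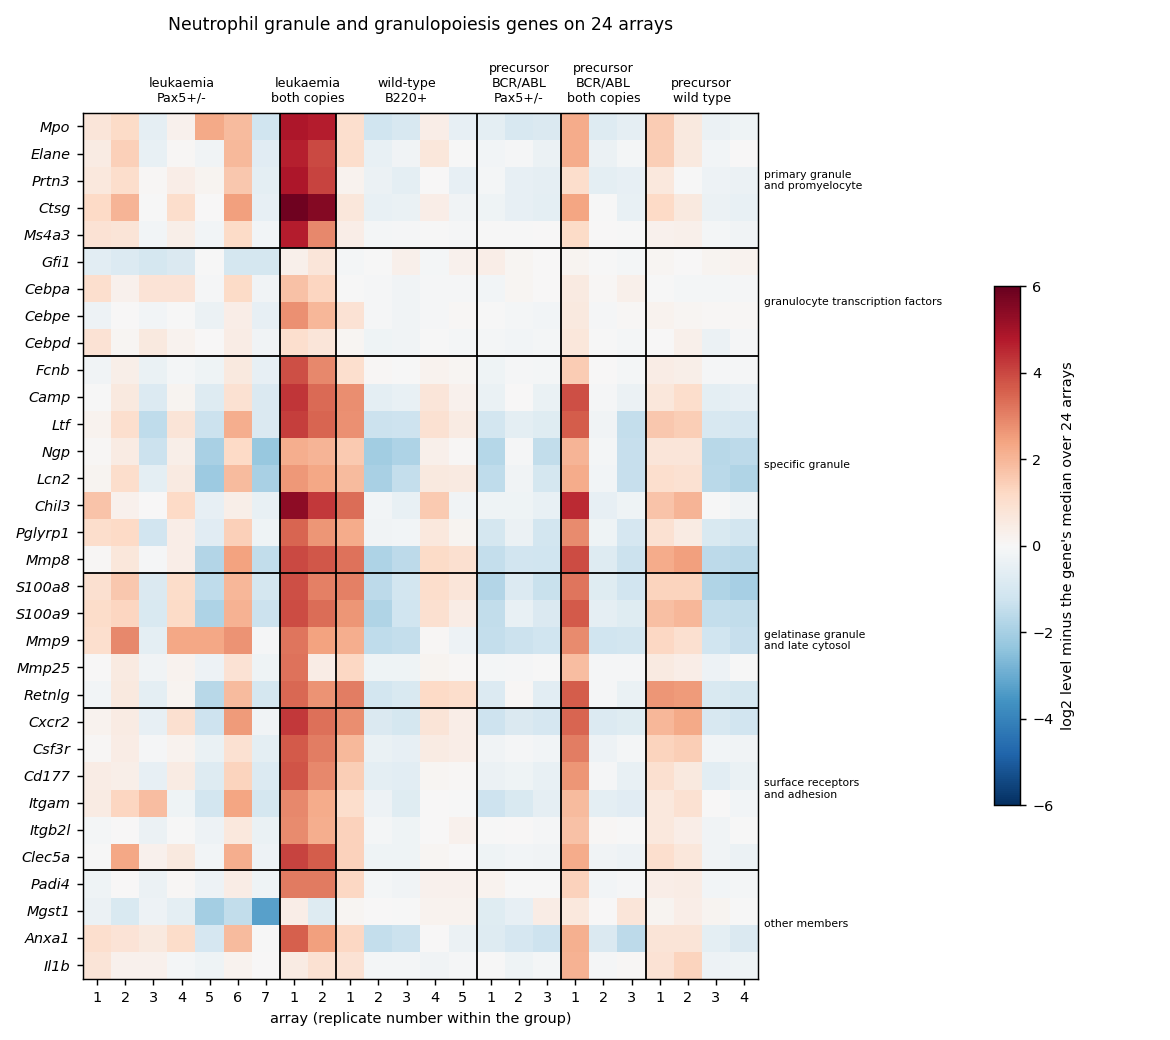
Log2 level of each of the 32 members (rows, grouped by role) on each of the 24 arrays (columns, by group and replicate number), minus that gene's median over the 24 arrays; red is above and blue below. Arrays 1 and 2 of the both-copy leukaemias are red for nearly all rows, while in the sorted groups single arrays are red for specific and gelatinase granule genes.

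Markers of other cell types differed between these groups as well, and not all in step with the members. B lineage markers (11 measured) averaged from 8.47 to 10.62 over the Pax5+/- leukaemias and 8.17 and 8.77 in the both-copy leukaemias, against 12.03 to 12.28 in B220+ cells and 11.63 to 11.86 over all precursors. Monocyte and macrophage markers (17) averaged from 7.37 to 9.71 in Pax5+/- leukaemias and 8.68 and 8.07 in both-copy leukaemias, against 6.42 to 6.70 in B220+ cells. Erythroid markers (9, Hbb-bt not among them) averaged from 6.43 to 10.77 in Pax5+/- leukaemias and 11.89 and 7.45 in both-copy leukaemias, against 7.12 to 7.42 in B220+ cells. On both-copy precursor array 1 they had 8.87, against 7.64 and 7.58 on arrays 2 and 3 of its group. Mcpt8, which defines basophils, had 5.08 to 6.69 in Pax5+/- leukaemias, 9.69 and 8.79 in both-copy leukaemias, 7.52 on B220+ array 1 and 5.22 to 5.54 on the other B220+ arrays. Epx, which defines eosinophils, had 6.35 and 5.43 in both-copy leukaemias and 6.93 on B220+ array 1, against 5.28 to 5.70 on the other B220+ arrays. The 7 eosinophil markers averaged 6.75 and 6.09 in both-copy leukaemias and 7.62 on B220+ array 1. On the other B220+ arrays they averaged 6.45 to 6.76. The part of these cell types in the results below was not tested. In bulk RNA, more cells of a type and more RNA per cell cannot be told apart.

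**Figure D2:**
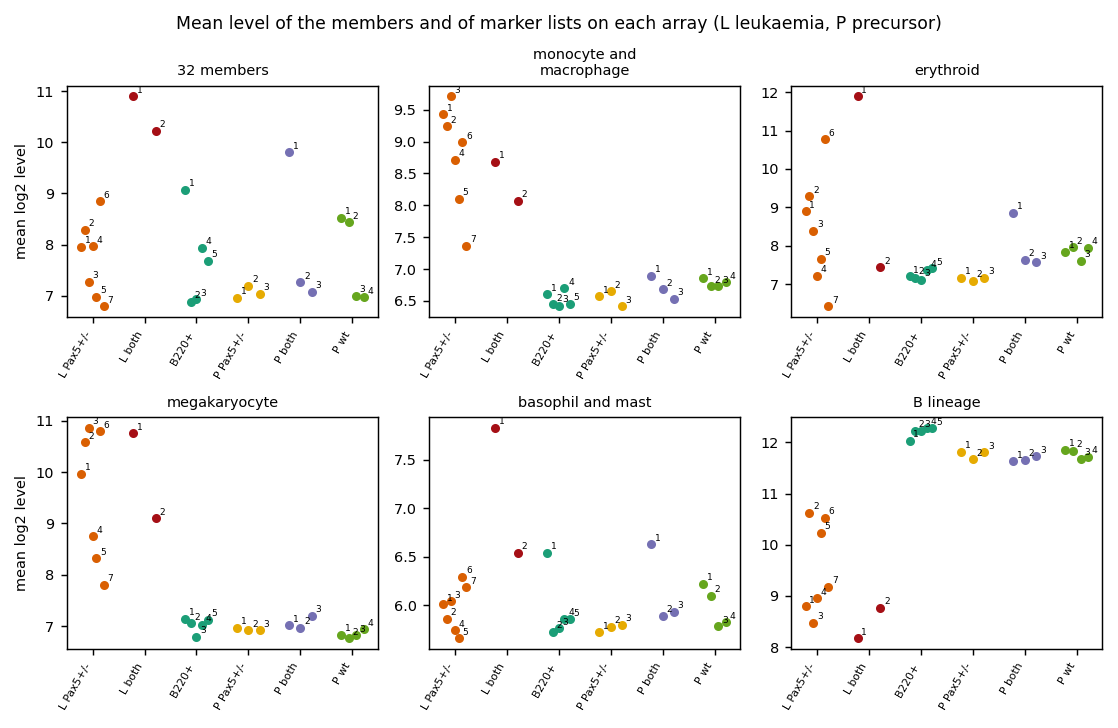
Mean log2 level on each array of the 32 members and of 5 marker lists, by group; each point is 1 array with its replicate number. The members are highest in the 2 both-copy leukaemias (10.90 and 10.22), monocyte and megakaryocyte markers are high in both leukaemia groups, and B lineage markers are high in all sorted groups.

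The comparison of both-copy leukaemias with B220+ cells asks how leukaemic marrow differs from normal B cells. Neutrophil granule genes were higher there: 20 of the 32 members passed the test in this direction and 0 in the other. The test was limma on 14 arrays with Benjamini-Hochberg adjustment over all genes at 0.05, and 9.48% of all genes passed as higher and 11.9% as lower. The median change of the members was 3.01 on the log2 scale, against -0.07 over all genes. In 28 members both arrays lay above all 5 B220+ arrays, where 16.9% of all genes did so. Without both-copy leukaemia array 1 the count was 11, and that fit assumes that the lone array varies like the other groups. The same 11 (Mpo, Elane, Prtn3, Ctsg, Ms4a3, Cebpe, Fcnb, Csf3r, Itgb2l, Clec5a and Padi4) passed under all 18 alternatives.

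Primary granule genes had the largest median change of the 6 role groups, 4.71, and 5 of 5 passed. Ctsg, the serine protease cathepsin G, had log2 levels of 5.98, 7.49 and 8.92 as lowest, median and highest in Pax5+/- leukaemias and 12.29 and 11.96 in both-copy leukaemias, against 7.11, 6.01, 6.06, 6.86 and 6.25 in B220+ cells. Its change in both-copy leukaemias against B220+ cells was 5.67 ± 0.68 (SE, limma adjusted p = 0.000138), or 50.8-fold. Mpo, which makes hypochlorous acid, had 6.36, 8.30 and 9.85 as lowest, median and highest in Pax5+/- leukaemias and 12.44 and 12.26 in both-copy leukaemias, against 8.56, 6.36, 6.63, 7.97 and 7.06 in B220+ cells. The change of Mpo in both-copy leukaemias against B220+ cells was 5.03 ± 0.84 (adjusted p = 0.00118). Prtn3, proteinase 3, had 6.31, 7.31 and 8.52 as lowest, median and highest in Pax5+/- leukaemias and 11.76 and 10.98 in both-copy leukaemias, against 7.11, 6.56, 6.32, 6.92 and 6.42 in B220+ cells. For these 3 genes both arrays of the both-copy leukaemias stood above every other array of the leukaemia set. Prtn3 changed by 4.71 ± 0.46 (adjusted p = 3.28e-05). Neutrophil elastase, Elane, changed by 4.11 ± 0.65 (adjusted p = 0.000813) and Ms4a3, a membrane protein of granulocyte and monocyte progenitors, by 3.78 ± 0.46 (adjusted p = 0.000138).

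Among the transcription factors, 3 of 4 were higher in both-copy leukaemias than in B220+ cells. Cebpe, the C/EBP factor that specific granule genes need, had 6.93, 7.26 and 7.79 as lowest, median and highest in Pax5+/- leukaemias and 10.13 and 9.40 in both-copy leukaemias, against 8.28, 7.33, 7.19, 7.35 and 7.49 in B220+ cells. Cebpa, the factor that starts granulocyte commitment, had 6.39, 7.41 and 7.71 as lowest, median and highest in Pax5+/- leukaemias and 8.35 and 7.85 in both-copy leukaemias, against 6.56, 6.52, 6.39, 6.50 and 6.51 in B220+ cells. The highest Pax5+/- array thus lay close to the lower both-copy one. Cebpd, another C/EBP factor of the later stages, had 5.45, 5.87 and 6.50 as lowest, median and highest in Pax5+/- leukaemias and 6.68 and 6.37 in both-copy leukaemias, against 5.76, 5.38, 5.42, 5.61 and 5.55 in B220+ cells. The changes from B220+ cells were 2.24 ± 0.29 for Cebpe (adjusted p = 0.000223), 1.60 ± 0.33 for Cebpa (0.00417) and 0.98 ± 0.23 for Cebpd (0.00963). Cebpa and Cebpd no longer passed without both-copy leukaemia array 1. Gfi1, the repressor that is on in both neutrophil precursors and early B cells, had 8.24 and 8.67 in both-copy leukaemias, against 7.83 to 8.22 in B220+ cells, and did not pass (0.45 ± 0.25, adjusted p = 0.207).

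Specific granule genes had 5 of 8 members higher in both-copy leukaemias than in B220+ cells, with a median change of 3.20. Chil3, a chitinase-like protein, had 5.22, 5.95 and 7.41 as lowest, median and highest in Pax5+/- leukaemias and 11.07 and 9.95 in both-copy leukaemias, against 9.03, 5.51, 5.26, 7.24 and 5.47 in B220+ cells. Ltf, lactoferrin, had 7.00, 8.75 and 10.72 as lowest, median and highest in Pax5+/- leukaemias and 12.66 and 12.02 in both-copy leukaemias, against 11.28, 7.26, 7.27, 9.44 and 9.02 in B220+ cells. The B220+ arrays of these genes spread over several log2 units, with array 1 the highest. Chil3 changed by 4.01 ± 0.91 (adjusted p = 0.00798) and Ltf by 3.48 ± 1.12 (0.0421). The call of Ltf was lost under 9 of 18 alternatives, among them leaving out either both-copy array or B220+ array 2, 3, 4 or 5, and Chil3 was lost without both-copy array 1. The lectin Fcnb (3.09 ± 0.35, adjusted p = 8.65e-05), the antimicrobial peptide gene Camp (3.30 ± 0.78, 0.00947) and the peptidoglycan-binding protein gene Pglyrp1 (2.55 ± 0.76, 0.0303) also passed. Camp was lost without both-copy array 1. Pglyrp1 was lost under 7 of 18 alternatives, among them leaving out either both-copy array or B220+ array 2, 3 or 5. Ngp, the siderophore binder Lcn2 and the collagenase gene Mmp8 did not pass, with changes of 2.50, 2.53 and 3.44.

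Of the 5 gelatinase granule and late cytosol genes 0 passed limma in both-copy leukaemias against B220+ cells (5 were higher at an unadjusted p under 0.05), and their median change was 3.01. S100a9, a subunit of calprotectin, had 7.09, 10.05 and 11.01 as lowest, median and highest in Pax5+/- leukaemias and 12.85 and 12.28 in both-copy leukaemias, against 11.56, 7.11, 7.74, 9.91 and 9.38 in B220+ cells (singled out, as Mmp9 is, after the values were seen). Both arrays of the both-copy leukaemias lay above every B220+ array, yet B220+ arrays 1 and 2 differed by more than the groups' means did. The change of S100a9 was 3.43 ± 1.21 (adjusted p = 0.0624), that of its partner S100a8 3.02 ± 1.20 (0.0916) and that of the gelatinase gene Mmp9 3.01 ± 1.08 (0.0647). Over all 32 members, 29 were higher and 0 lower at an unadjusted p under 0.05, where 3019 and 4106 of 19938 genes were.

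Of the surface receptors and adhesion genes, 5 of 6 were higher in both-copy leukaemias than in B220+ cells. Clec5a, a lectin receptor of myeloid cells, had 5.12, 5.70 and 7.77 as lowest, median and highest in Pax5+/- leukaemias and 9.47 and 9.04 in both-copy leukaemias, against 6.81, 5.18, 5.17, 5.56 and 5.43 in B220+ cells. Cxcr2, the chemokine receptor by which mature neutrophils leave marrow, had 5.67, 7.11 and 9.44 as lowest, median and highest in Pax5+/- leukaemias and 11.14 and 10.19 in both-copy leukaemias, against 9.69, 6.04, 5.84, 7.66 and 7.31 in B220+ cells. Cd177, a neutrophil surface glycoprotein, had 6.75, 7.96 and 8.93 as lowest, median and highest in Pax5+/- leukaemias and 11.36 and 10.48 in both-copy leukaemias, against 9.06, 7.00, 6.97, 7.72 and 7.63 in B220+ cells. In all 3 genes the both-copy arrays lay above both other groups. Clec5a changed by 3.63 ± 0.71 (adjusted p = 0.00344), Cxcr2 by 3.36 ± 1.01 (0.0324) and Cd177 by 3.24 ± 0.63 (0.00314). The G-CSF receptor gene Csf3r changed by 2.97 ± 0.55 (0.00226) and the integrin gene Itgb2l by 2.23 ± 0.39 (0.0015). Itgam, which encodes the integrin subunit CD11b, did not pass (2.54 ± 0.86, 0.0528). The call of Cxcr2 was lost under 8 of 18 alternatives, among them leaving out either both-copy array or B220+ array 2, 3 or 5, and Cd177 was lost without both-copy array 1.

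Of the 4 remaining members 2 were higher in both-copy leukaemias than in B220+ cells. Padi4, which citrullinates histones in extracellular traps, had 5.37, 5.47 and 6.18 as lowest, median and highest in Pax5+/- leukaemias and 8.82 and 8.84 in both-copy leukaemias, against 6.97, 5.61, 5.48, 5.95 and 5.97 in B220+ cells. Anxa1, the anti-inflammatory annexin, had 7.58, 9.40 and 10.46 as lowest, median and highest in Pax5+/- leukaemias and 12.15 and 11.05 in both-copy leukaemias, against 9.84, 7.14, 7.30, 8.62 and 8.23 in B220+ cells. Padi4 differed little between the both-copy arrays, and its highest other array in the leukaemia set was B220+ array 1. Their changes were 2.84 ± 0.33 (adjusted p = 0.0001) for Padi4 and 3.37 ± 0.76 (0.00748) for Anxa1, whose call was lost without both-copy array 1. Mgst1 (-0.28 ± 0.65, adjusted p = 0.78) and Il1b (0.62 ± 0.29, 0.146) did not pass.

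**Figure D3:**
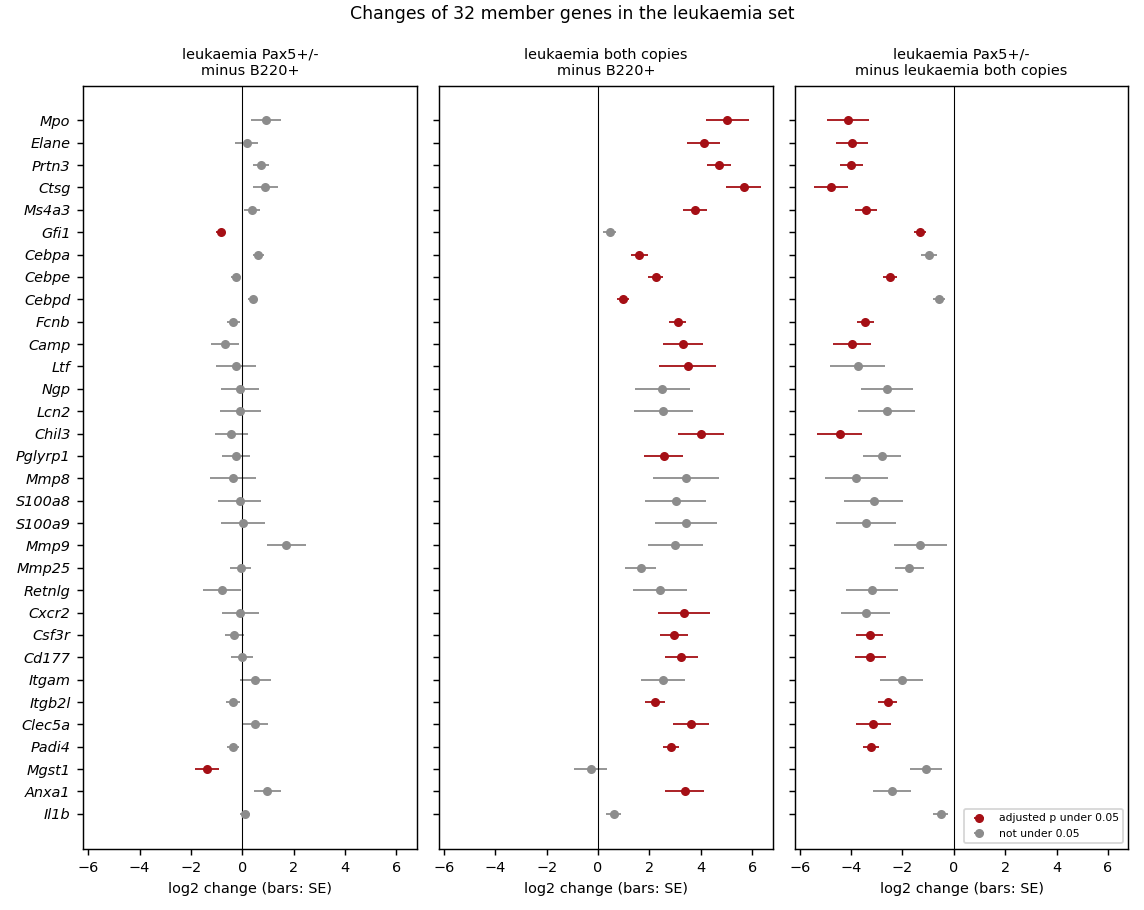
Log2 change ± SE of the 32 members in Pax5+/- leukaemias against B220+ cells, both-copy leukaemias against B220+ cells, and Pax5+/- against both-copy leukaemias; red points passed limma at an adjusted p of 0.05. The middle panel holds 20 red points, all to the right, and the right panel 15, all to the left.

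Pax5+/- leukaemias were then set against the same B220+ cells. Of the 32 members 0 were higher and 2 lower by limma, where 12.9% of all genes passed as higher and 18.9% as lower. At an unadjusted p under 0.05, 4 members were higher and 2 lower, where 3362 and 5316 of 19938 genes were. The median change was -0.08, against -0.06 over all genes. This comparison and the one above share the B220+ arrays, so their values are set side by side only. Ctsg changed by 0.89 ± 0.48 in Pax5+/- and 5.67 ± 0.68 in both-copy leukaemias, Prtn3 by 0.72 ± 0.32 and 4.71 ± 0.46, and S100a9 by 0.02 ± 0.85 and 3.43 ± 1.21. The sign of the median followed single B220+ arrays: it was 0.36 without array 1 and -0.40 without array 2. With array weights in the fit 6 members passed as higher.

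Gfi1 and Mgst1 were the 2 members lower in Pax5+/- leukaemias than in B220+ cells. Gfi1 had 6.86, 7.09 and 7.93 as lowest, median and highest in Pax5+/- leukaemias, against 7.84, 7.92, 8.22, 7.83 and 8.20 in B220+ cells. Leukaemia array 5 alone reached the range of the B220+ cells. The change was -0.85 ± 0.17 (limma adjusted p = 0.00262), lower than the B220+ mean in 7 of 7 arrays, and it passed under all 23 alternatives. Mgst1, a microsomal glutathione transferase, had 6.12, 8.42 and 9.06 as lowest, median and highest in Pax5+/- leukaemias, against 9.45, 9.37, 9.33, 9.58 and 9.55 in B220+ cells. The groups did not overlap, which held for 1 of the 32 members and for 11.4% of all genes in this direction. Its change of -1.38 ± 0.45 (adjusted p = 0.0343) was lost under 10 of 23 alternatives, among them leaving out leukaemia array 5 or 6 or any 1 of the B220+ arrays.

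Single Pax5+/- leukaemia arrays broke the common pattern. Array 6 was the highest of its group for 24 of the 32 members, array 7 the lowest for 15 and array 5 the lowest for 12. Mmp9 was nonetheless high on array 5, with levels of 9.48, 11.35, 7.88, 10.81, 10.79, 11.20 and 8.43 on arrays 1 to 7, against 11.69 and 10.89 in both-copy leukaemias and 10.67, 6.97, 7.05, 8.53 and 8.19 in B220+ cells. Its change from B220+ cells was 1.71 ± 0.75 and did not pass (adjusted p = 0.1). On array 5 Mpo was also the highest of the group at 9.85, where Elane had 7.69 and Prtn3 7.09, below their levels on array 6 of 9.85 and 8.52. Itgam had 9.98 on array 3, while Ltf had its lowest level of the group there at 7.00. Monocyte and macrophage markers averaged 9.71 on array 3, the highest of all 24 arrays. Their part in the Itgam level was not tested.

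The comparison of the leukaemia groups with each other sets mice that lack 1 copy of Pax5 against mice with both. Neither group has a sort named, so Pax5 copy and the cell makeup of the marrow cannot be told apart. Neutrophil granule genes were lower in Pax5+/- than in both-copy leukaemias: 15 of 32 members passed limma as lower and 0 as higher. Of all genes 1.16% passed as lower and 0.712% as higher. At an unadjusted p under 0.05, 29 members were lower and 0 higher, where 1625 and 1141 of 19938 genes were. The median change was -3.16, against 0.02 over all genes. In 26 members all 7 Pax5+/- arrays lay below both arrays of the both-copy leukaemias, which held for 4.29% of all genes. The both-copy group has 2 arrays, and without array 1 of it 8 members passed. Prtn3, Ctsg, Ms4a3, Cebpe, Fcnb and Padi4 passed under all 19 alternatives.

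All 5 primary granule genes were lower in Pax5+/- leukaemias, with a median change of -3.98. Ctsg averaged 7.35 ± 1.11 in Pax5+/- leukaemias (SD, n = 7) and 12.12 ± 0.24 in both-copy leukaemias (SD, n = 2), a change of -4.78 ± 0.65 (SE, limma adjusted p = 0.00223). Prtn3 averaged 7.39 ± 0.71 in Pax5+/- and 11.37 ± 0.55 in both-copy leukaemias (-3.98 ± 0.44, adjusted p = 0.0004). Mpo changed by -4.13 ± 0.81 (0.0205) and Elane by -3.95 ± 0.62 (0.0059). Both were lost without both-copy array 1, with array weights and with only the compared groups in the fit. Mpo was also lost with the replicate number as a block. Of the factors Cebpe was lower (-2.49 ± 0.28, 0.000404), with 7.28 ± 0.29 in Pax5+/- and 9.77 ± 0.52 in both-copy leukaemias, and so was Gfi1 (-1.30 ± 0.24, 0.0144). The Gfi1 call was lost with array weights, with only the compared groups in the fit and with the replicate number as a block (adjusted p up to 0.174). Fcnb (-3.44 ± 0.33, 0.000166), Chil3 (-4.44 ± 0.87, 0.0213) and Camp (-3.96 ± 0.74, 0.0163) were the 3 of 8 specific granule genes that passed. Without both-copy array 1 Chil3 and Camp did not pass, nor did Csf3r and Cd177. These genes were lost with array weights as well, Camp and Csf3r also with a replicate block, and Cd177 with only the compared groups.

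Gelatinase granule and late cytosol genes had 0 of 5 members past limma between the leukaemia groups (4 were lower at an unadjusted p under 0.05), with a median change of -3.11. Among the surface genes 4 of 6 passed: Csf3r (-3.28), Cd177 (-3.26), Clec5a (-3.13) and Itgb2l (-2.58). Clec5a was lost under 9 of 19 alternatives, leaving out both-copy array 1 or Pax5+/- array 1, 3, 4, 5 or 7 among them. Itgb2l was lost with array weights. Padi4 was the 1 of the 4 remaining members that passed (-3.21 ± 0.31, adjusted p = 0.000166). Beside these, the monocyte and macrophage list had 0 of 17 genes past limma between the leukaemia groups (2 higher and 1 lower at an unadjusted p under 0.05), the basophil and mast cell list 1 of 8 lower (Mcpt8, -3.41 ± 0.58, adjusted p = 0.00956) and the B lineage list 1 of 11 higher (Cd79b, 1.29 ± 0.29, 0.0427). At an unadjusted p under 0.05 the basophil and mast cell list had 6 of 8 lower and the B lineage list 4 of 11 higher. The erythroid list had negative changes in 9 of 9 genes with a median of -1.35, and 0 of them passed limma or had an unadjusted p under 0.05.

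**Figure D4:**
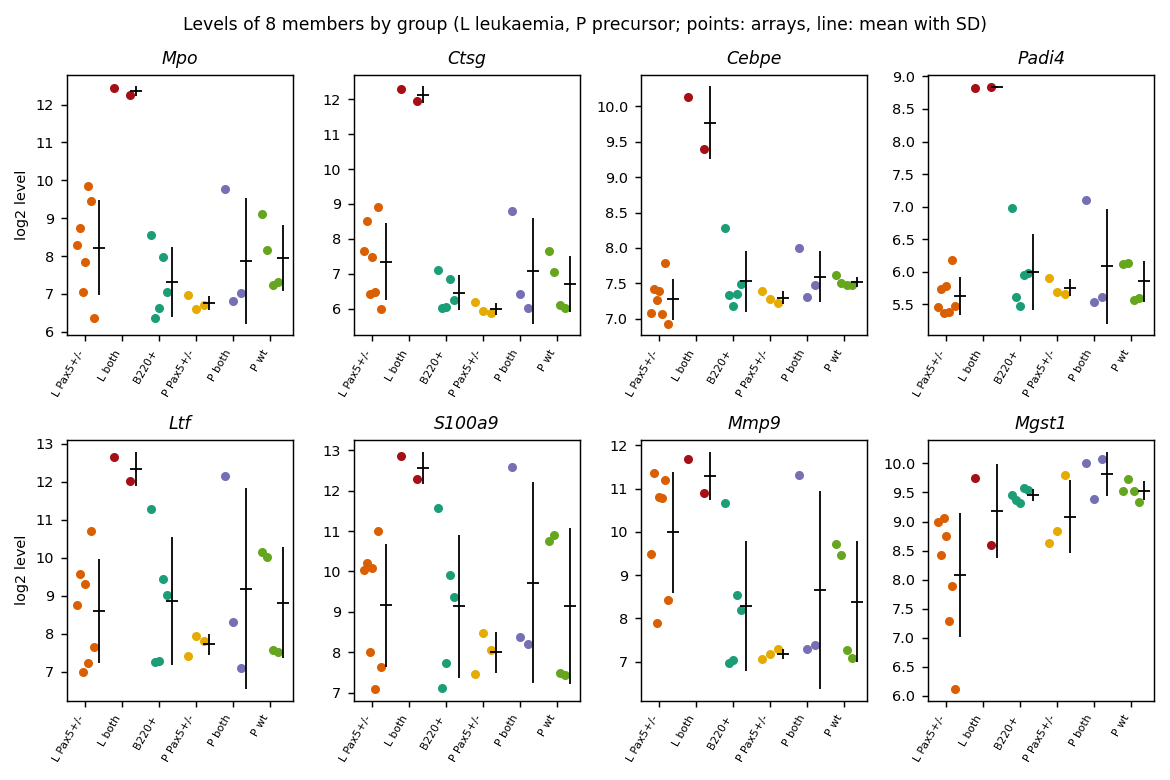
Log2 level of Mpo, Ctsg, Cebpe, Padi4, Ltf, S100a9, Mmp9 and Mgst1 on each array, by group; points are arrays and the black mark beside them is the mean with SD. Ctsg, Cebpe and Padi4 are separate in both-copy leukaemias from all other arrays, whereas Ltf, S100a9 and Mmp9 on single arrays of other groups come close to them or lie among them.

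The both-copy leukaemias stood above every other array of the series for all 5 primary granule genes and for 0 of 5 gelatinase granule and late cytosol genes. In all, 14 of 32 members had both of these arrays above the 22 others. Beside the primary granule genes they were 2 of 4 factors (Cebpa and Cebpe), 2 of 8 specific granule genes (Fcnb and Lcn2), 3 of 6 surface genes (Cd177, Itgb2l and Clec5a) and 2 of 4 other members (Padi4 and Anxa1). The share of all genes that did so was not counted, so these counts have no background beside them. For Ctsg the lower both-copy array stood 3.04 above the highest other array, Pax5+/- leukaemia array 6. For S100a9 the same gap was -0.30, since both-copy precursor array 1 had a level of 12.59. That precursor array was the highest of the 22 in 21 of the 32 members. Set against the mean of the both-copy leukaemias, its median difference was -2.62 over the primary granule genes, -0.21 over the specific granule genes and 0.02 over the gelatinase granule and late cytosol genes. B220+ array 1 had -3.79, -0.96 and -0.62 for the same 3 groups, and Pax5+/- leukaemia array 6 had -2.85, -1.63 and -1.16. These are descriptions of single arrays, and no test of the difference between granule stages was made.

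**Figure D5:**
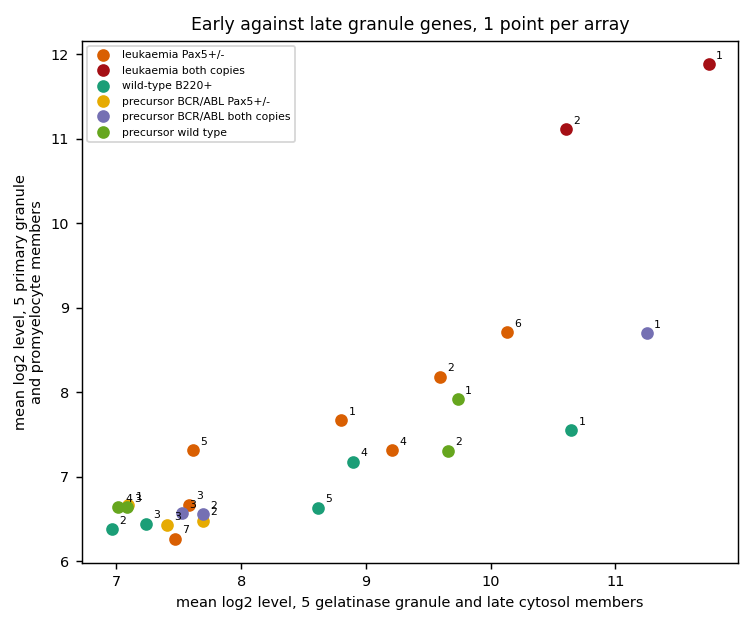
Mean log2 level of the 5 primary granule and promyelocyte members (vertical axis) against that of the 5 gelatinase granule and late cytosol members (horizontal axis), 1 point per array with its replicate number. The 2 both-copy leukaemias are at 11.88 and 11.11 on the vertical axis, while both-copy precursor array 1, at 11.25 on the horizontal axis, has 8.70 on the vertical.

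Among the precursors almost no member passed the test, and the medians moved with single arrays. In Pax5+/- against wild-type precursors 0 of 32 members passed by limma on the 10 precursor arrays, where 4.17% of all genes did. There 0 members had an unadjusted p under 0.05, where 2143 of 19938 genes were higher and 2483 lower. In Pax5+/- against both-copy precursors 0 passed, where 0.0251% of all genes did. At an unadjusted p under 0.05, 2 members were lower, as were 1067 of 19938 genes, a similar share. In both-copy against wild-type precursors 1 passed, where 27.1% of all genes did. The medians were -0.59, -1.05 and 0.29. Changes were negative in 30 of 32 members in Pax5+/- against wild-type precursors and in 31 against both-copy precursors. Of 19938 genes 8307 and 9971 were negative in these comparisons. In both-copy against wild-type precursors 28 members were positive, where 11213 of 19938 genes were. Members were high on the same few arrays, so their signs are not independent. Leaving out the 3 high arrays (both-copy array 1 and wild-type arrays 1 and 2), an alternative chosen after seeing the data, gave medians of 0.066, -0.11 and 0.16 with 0 members past the test. Those arrays were picked for their high member levels, so that fit cannot show whether the members changed. Leaving out both-copy array 1 alone turned the median against wild type to -0.49.

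Cebpa was the member that passed in the precursors. Its level was 6.44, 6.72 and 6.59 in Pax5+/- precursors and 7.12, 6.66 and 6.89 in both-copy precursors, against 6.57, 6.45, 6.46 and 6.52 in wild-type precursors. All 3 both-copy arrays lay above all 4 wild-type arrays, as 19.3% of all genes did in this direction. The change was 0.39 ± 0.10 (limma adjusted p = 0.0252) and was lost under 9 of 18 alternatives, among them leaving out both-copy array 1 or 3 or wild-type array 2 or 3. Between Pax5+/- and both-copy precursors Cebpa changed by -0.31 ± 0.11 and did not pass (adjusted p = 0.278).

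For Ltf, S100a9 and Mpo the arrays of the both-copy and wild-type precursors spread widely. Ltf had 7.41, 7.94 and 7.81 in Pax5+/- precursors and 12.16, 8.32 and 7.09 in both-copy precursors, against 10.16, 10.03, 7.58 and 7.52 in wild-type precursors. S100a9 had 7.47, 8.47 and 8.04 in Pax5+/- precursors and 12.59, 8.38 and 8.20 in both-copy precursors, against 10.74, 10.90, 7.48 and 7.44 in wild-type precursors. Mpo had 6.98, 6.61 and 6.71 in Pax5+/- precursors and 9.78, 6.81 and 7.03 in both-copy precursors, against 9.11, 8.15, 7.24 and 7.31 in wild-type precursors. The same arrays were high for all 3 genes, both-copy array 1 and wild-type arrays 1 and 2, and no Pax5+/- precursor array was high. Array 1 of the both-copy precursors was the highest of its group for 31 of 32 members, and wild-type arrays 1 and 2 for 16 and 15. For Mpo, Cebpe, Chil3 and Itgam all 3 Pax5+/- arrays lay below all 4 wild-type arrays, a share of 4 in 32 where 12% of all genes did so, and Itgam changed by -1.26 ± 0.57 without passing (adjusted p = 0.221).

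The Pax5-copy difference was also tested between stages, as the Pax5+/- minus both-copy difference in leukaemias less the same difference in precursors, on all 24 arrays. The leukaemic marrows have no sort named and the precursors are proB and preB cells, so stage and cell isolation cannot be told apart. The median over members was -1.83 against 0.02 over all genes. At an unadjusted p under 0.05, 13 members were negative and 0 positive, where 1545 and 1069 of 19938 genes were. By the adjusted test 6 members passed, all in the negative direction, where 0.466% of all genes passed in that direction and 0.226% in the other. They were Prtn3 (-3.60 ± 0.64, limma adjusted p = 0.0091), Ms4a3 (-3.01 ± 0.57, 0.0146), Fcnb (-2.81 ± 0.52, 0.0124), Padi4 (-2.88 ± 0.50, 0.00742), Cebpe (-2.19 ± 0.35, 0.00443) and Gfi1 (-1.46 ± 0.29, 0.0172). For Cebpe the 2 differences were -2.49 ± 0.28 in leukaemias and -0.30 ± 0.15 in precursors. For Prtn3 they were -3.98 ± 0.44 and -0.39 ± 0.41. The count depended on single precursor arrays: 10 members passed without both-copy precursor array 1 and 3 without array 2. Cebpe passed under all 25 alternatives. Fcnb did not pass with the replicate number as a block (adjusted p = 0.0648), and with only the compared groups in the fit 1 member passed. Leaving out both-copy leukaemia array 1 ended the calls of Ms4a3 and Fcnb, both-copy precursor array 2 those of Ms4a3, Gfi1 and Fcnb, array 3 those of Ms4a3 and Gfi1, and Pax5+/- precursor array 1 that of Gfi1. S100a9 (-1.68 ± 1.83) and Ltf (-2.27 ± 1.69) did not pass.

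Other genes of the granule programme were read from lists beside the members. A list name is a broad label, and its genes need not be particular to that granule. Against B220+ cells 9.48% of all genes were higher and 11.9% lower in both-copy leukaemias, so small counts in these lists are near the background. In the same comparison 7 of 17 monocyte and macrophage markers were higher by limma and 0 lower. Several genes of the lists below are also expressed by monocytes and macrophages, whose part was not tested. In both-copy leukaemias against B220+ cells, 8 of 12 other primary granule genes were higher and 0 lower, led by the lysosomal glucosidase gene Gaa (1.01 ± 0.17, limma adjusted p = 0.00108), Cst7 (2.34 ± 0.48, 0.00454), a cystatin, and Gusb (0.74 ± 0.17, 0.00808), a glucuronidase. Of 20 other specific and late granule genes 13 were higher and 0 lower, led by the chitinase gene Chit1 (0.80 ± 0.08, 3.68e-05), the acute-phase protein gene Orm1 (1.86 ± 0.25, 0.000304) and Lrg1 (3.64 ± 0.67, 0.00216). Of 24 other receptor and signalling genes 11 were higher and 1 lower, with the leukotriene receptor gene Ltb4r1 (1.34 ± 0.18, 0.000313), the complement receptor gene C5ar1 (2.50 ± 0.44, 0.00152) and Cxcr4, which holds neutrophils in marrow (-1.01 ± 0.18, 0.00147). The NADPH oxidase, the complex that makes superoxide, had 1 of 5 genes higher, Cybb (0.77 ± 0.24, 0.0395), and 1 lower, Rac2 (-0.81 ± 0.14, 0.00161). Of 17 other regulators 4 were higher and 2 lower, with Gata2 (1.71 ± 0.25, 0.000476) up and Ets1 (-1.88 ± 0.17, 2.09e-05) and Lef1 (-3.60 ± 0.58, 0.00097) down.

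The same lists were read between Pax5+/- and both-copy leukaemias, where 1.16% of all genes were lower and 0.712% higher by limma. Of 20 other specific and late granule genes 4 were lower, Chit1 (-0.78 ± 0.08, limma adjusted p = 0.000173), Orm1 (-2.14 ± 0.24, 0.000435), Wfdc21 (-1.85 ± 0.27, 0.00349) and Arg2 (-1.23 ± 0.22, 0.0138). Ltb4r1 (-1.15 ± 0.18, 0.00494), C5ar1 (-2.11 ± 0.42, 0.022) and Mcemp1 (-2.59 ± 0.57, 0.0365) were lower among 24 receptor and signalling genes. Of the 17 regulators Gata2 (-1.39 ± 0.24, 0.0101) and Gfi1b (-2.30 ± 0.54, 0.0494) were lower, both also at work in basophil, erythroid and platelet precursors. Among the 12 genes listed as other primary granule genes Gstm1 was lower (-2.32 ± 0.31, 0.00197) and Ctsc, the protease that activates the granule serine proteases, was higher (1.02 ± 0.20, 0.0232). Of the 5 NADPH oxidase genes 0 passed limma, and 0 had an unadjusted p under 0.05.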

How the data were processed

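Total RNA was extracted with Trizol and hybridised as biotin-labelled fragments, 1 array per sample, per the labels' protocols. The authors deposited log2 values per probe set, made with RMA in oligo per the submitters' processing notes; the notes give no versions and do not say whether all 24 arrays were normalized together. RMA corrects background, equalises distributions between arrays and summarises probes, so an array's values depend on the arrays it was normalized with. Scanner files were not used here. Array medians lay from 6.70 to 6.81, arrays correlated at 0.906 to 0.995, and no array was a copy of another (0 identical pairs).

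Of 35556 probe sets, 21789 carried 1 symbol and were used, while 1621 with several symbols and 12146 without one were left out (21698 of those used matched the RefSeq table of GRCm38.p6). Where a gene had several probe sets (999 genes, 0 of the members), the one with the highest mean over 24 arrays was taken. Groups came from the sample titles, which number biological replicates. Groups were compared with limma's lmFit and eBayes (version 3.58.1, R 4.3.3), two-sided, adjusted by Benjamini-Hochberg over 19938 genes at a threshold of 0.05 with no minimum fold. The 14 arrays of the leukaemia set shared 1 spread, the 10 of the precursor set another, and the stage difference used all 24. Precision is limited by how many arrays a group has. The fit was tested on simulated data in which all groups shared 1 spread per gene. That test does not cover groups of unequal spread.

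The members and lists were chosen with earlier results of these data known. Values by array in the leukaemia set (lowest, median and highest for the 7 Pax5+/- leukaemias) are given for members that passed in any comparison and were among the 3 largest changes of their role group in both-copy leukaemias against B220+ cells, and for any that passed in precursors; Gfi1, S100a9 and Mmp9 were added after their values were seen, as was Mgst1. Of other lists at most 3 genes with the smallest adjusted p are named; where all of 5 or fewer are named, that was chosen after their values were seen. Role groups do not overlap; the megakaryocyte, eosinophil, stem and progenitor, and T and NK cell marker lists were read the same way.

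Alternatives were other scalings, weighting of arrays, a spread trended on intensity, a filter on dim genes, the mean of all probe sets, other sets of arrays in the fit, the replicate number as a block and each array left out. Groups share replicate numbers. Between Pax5+/- and both-copy precursors, arrays of the same number had correlated deviations from their means, at 0.208, 0.213 and 0.250. These lie over the limit of 0.1 for a pairing in the data. Arrays of different numbers also passed it, with 0.130 for Pax5+/- precursor array 1 and both-copy precursor array 2. Both-copy precursor array 1 and wild-type precursor array 2 had 0.441. Passing the limit thus does not by itself show a pairing. No label speaks of a common litter or day, and other groups share numbers only. Figures were drawn with matplotlib 3.10.9.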

Additional observations from a re-analysis of the deposited data

Results flagged for a closer look

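Some arrays stood far from the others of their group in single members. On B220+ array 1 the log2 level was 6.02 for Ms4a3, 8.28 for Cebpe, 7.81 for Fcnb, 7.25 for Mmp25, 6.81 for Clec5a and 7.21 for Il1b, each above the other 4 B220+ arrays by a gap past Dixon's critical value. That is 6 of 32 members (18.8%) in the B220+ cells, where chance flags about 1 in 20 for a single gene. All 6 were on 1 array, the highest of its group for 30 of the 32 members, so they are not independent. The share of all genes flagged by this rule was not counted. In Pax5+/- leukaemias 2 of 32 members (6.25%) stood apart, Gfi1 on array 5 at 7.93 and Itgb2l on array 6 at 7.48, both above the rest of the group. In wild-type precursors 0 of 32 did so. Groups of 2 or 3 arrays were not examined in this way.

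The Pax5-copy difference was tested between leukaemias and precursors and differed for 6 members: -3.60 for Prtn3, -3.01 for Ms4a3, -2.88 for Padi4, -2.81 for Fcnb, -2.19 for Cebpe and -1.46 for Gfi1 on the log2 scale. Without both-copy precursor array 1 the count was 10. Stage cannot be told apart from cell isolation in this difference.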

How the results depend on the processing

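Both-copy leukaemias against B220+ cells had 17 to 26 members higher and 0 lower under all alternatives that keep every array or drop the 3 high B220+ arrays (1, 4 and 5, an alternative chosen after seeing the data), which gave a median of 4.07. Leaving out 1 array gave 11 to 28 members higher and medians of 2.64 to 3.47. Pax5+/- against both-copy leukaemias gave 6 members lower with array weights and 10 with only the compared groups or with a replicate block, 8 to 16 with 1 array left out, and medians of -3.43 to -2.76. Pax5+/- leukaemias against B220+ cells gave 2 higher and 1 lower after cyclic loess, 6 higher with array weights, 3 higher and 1 lower with a replicate block, 1 lower without the high B220+ arrays, and 1 higher with a spread that follows intensity, with dim genes left out or with all 24 arrays sharing the spread. Leaving out 1 array gave 0 to 3 higher, 1 to 2 lower and medians of -0.40 to 0.36. In Pax5+/- against wild-type precursors 2 members were lower with array weights and 1 with only the compared groups, and 0 to 1 with 1 array left out (medians -0.90 to -0.33). In both-copy against wild-type precursors 0 were higher after renewed quantile normalization, cyclic loess, with 1 spread for all arrays, with a replicate block and without the 3 high precursor arrays, and with 1 array left out 0 to 1 were higher, 0 to 1 lower and medians were -0.49 to 0.73. Between Pax5+/- and both-copy precursors, the numbers of which may pair, 0 members passed with and without the replicate block, and medians were -1.55 to -0.11 with 1 array left out. The stage difference gave 2 members lower with array weights, 1 with only the compared groups, 5 with a replicate block, 10 and a median of -3.04 without the high precursor arrays, and 3 to 10 with 1 array left out (medians -3.04 to -1.14). Medians took both signs in Pax5+/- leukaemias against B220+ cells and in both-copy against wild-type precursors. Among the members followed singly, signs reversed for Mgst1 in both-copy leukaemias against B220+ cells without both-copy array 2 (0.29, and -0.85 without array 1) and for Chil3 in Pax5+/- against both-copy precursors without both-copy array 1 and without the 3 high precursor arrays (0.065 in both, and -2.44 without array 2). The cause was not tested.

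Counts over all genes moved more with the setting. Against B220+ cells they were 6336 for Pax5+/- leukaemias (2790 without the high arrays, 12413 after median centring) and 4260 for both-copy leukaemias (2201 to 8809), and 373 between the leukaemias (83 to 2137). In precursors they were 832 (0 to 5099) for Pax5+/- and 5396 (243 to 7382) for both-copy against wild type and 5 (0 to 138) between them, and 138 (9 to 1381) for the stage difference. Median centring moved the median of all genes against B220+ cells to -0.20 in Pax5+/- and -0.21 in both-copy leukaemias, against -0.06 and -0.07 as deposited. The share of calls that were higher was 16.4 and 19.1% then, 54.1 and 56.5% after cyclic loess, and 40.5 and 44.4% as deposited. Signal over background could not be assessed without scanner files.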

Other observations

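Some other genes linked to granulocytes passed the test in Pax5+/- leukaemias against B220+ cells, where 0 of the 32 members were higher by limma and 12.9% of all genes were higher and 18.9% lower. Of 24 other receptor and signalling genes 10 were higher and 1 lower, led by the decoy interleukin receptor gene Il1r2 (2.59 ± 0.34, adjusted p = 0.000116), the cytokine receptor subunit gene Csf2rb (1.49 ± 0.22, 0.000315) and Cxcr4 (-0.80 ± 0.12, 0.000356). Of the 20 genes listed as other specific and late granule genes 5 were higher: Trem1 (3.20 ± 0.52, 0.000532), Ltbp1 (2.02 ± 0.37, 0.00111), Cd63 (2.66 ± 0.50, 0.00144), Wfdc17 (2.73 ± 0.60, 0.00402) and Lrg1 (2.09 ± 0.47, 0.00445). A place on this list does not show that a gene is particular to those granules. Of the 12 genes listed as other primary granule genes 5 were higher, with Cst7 (3.04 ± 0.34, 3.18e-05) and Gusb (0.94 ± 0.12, 8.77e-05) first, and 1 lower, Gstm1 (-1.34 ± 0.23, 0.000723). Of 17 other regulators 0 were higher and 5 lower, with Ets1 (-1.64 ± 0.12, 1.4e-06), Lef1 (-2.83 ± 0.41, 0.000229) and Myb (-1.84 ± 0.38, 0.00291) first. Of the 5 NADPH oxidase genes Cybb was higher (0.70 ± 0.17, 0.00723), and Rac2 (-0.87 ± 0.10, 3.86e-05), Cyba (-0.53 ± 0.14, 0.0112) and Ncf4 (-1.08 ± 0.30, 0.0156) were lower. Several of these genes are also expressed by monocytes and macrophages, whose list had 14 of 17 genes higher in the same comparison. Their part was not tested.

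In both-copy against wild-type precursors the regulators Gata2 (0.43 ± 0.08, 0.00779), Spi1, which encodes PU.1 (0.46 ± 0.10, 0.0138), and Id1 (0.20 ± 0.05, 0.0269) were higher and Irf8, which favours monocytes over neutrophils (-0.69 ± 0.20, 0.0303), was lower by limma. These 4 of 17 regulators are no larger a share than the 27.1% of all genes called in this comparison. In Pax5+/- against wild-type precursors 0 of these 17 regulators passed.

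Markers of other marrow cells were read against B220+ cells in the same way. Stem and progenitor markers had 3 of 8 genes higher in each leukaemia group, Kit (2.89 ± 0.43), Flt3 (3.79 ± 0.72) and Cd34 (1.68 ± 0.51) in Pax5+/- leukaemias, and Cd34 (4.44 ± 0.73), Kit (2.72 ± 0.62) and Mecom (2.94 ± 0.86) in both-copy leukaemias. Megakaryocyte markers had 5 of 6 genes higher in Pax5+/- and 3 of 6 in both-copy leukaemias. Of the platelet genes, Ppbp changed by 4.66 ± 0.56 and 4.91 ± 0.79 in these groups. In Pax5+/- leukaemias 12.9% of all genes were higher and 18.9% lower, and in both-copy leukaemias 9.48% and 11.9%, so small counts in the lists that follow are near the background. Of 11 T and NK cell markers 2 were higher in Pax5+/- leukaemias, Cd3g and Cd4, and 0 passed limma in both-copy leukaemias (1 higher at an unadjusted p under 0.05). Of 7 eosinophil markers Prg3 was lower in Pax5+/- (-1.61 ± 0.15) and in both-copy leukaemias (-1.65 ± 0.21), and Ccr3 was higher in Pax5+/- leukaemias (1.31 ± 0.47). Of 9 erythroid markers 0 passed limma in either group, while 1 was higher in Pax5+/- and 6 in both-copy leukaemias at an unadjusted p under 0.05.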
